A study of Homo sapiens with 12 samples.

Results

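Of the 18950 genes in the deposited table, 10 are described here, chosen by symbol. They are 5 insulin-like growth factor (IGF) binding proteins (IGFBP2, IGFBP3, IGFBP4, IGFBP6 and IGFBP7), 3 receptors (IGF1R, IGF2R and INSR) and 2 insulin receptor substrates (IRS1 and IRS2). Their transcripts were measured by RNA sequencing in DU145 and PC3 (established cell lines from human prostate cancers), both grown in DMEM with 10% fetal bovine serum. Each line was sorted on green fluorescent protein (GFP), and the brightest 10% of cells (GFP high, which the labels call Wnt/β-catenin active) were set against the dimmest 10% (GFP low, called inactive). With 2 lines and 2 sorts, the 12 libraries form 4 groups of 3. No genotype change or drug is named for any group, and the labels used here do not describe the reporter behind the GFP, whether a line is 1 clone, or whether the 3 libraries came from separate cultures. P-values therefore measure only the spread between these libraries, which may be technical.

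IGF1 and IGF2 act through the receptor tyrosine kinase IGF1R, and insulin through its close relative INSR. Activated receptors phosphorylate the adaptors IRS1 and IRS2, which recruit PI3K and switch on AKT and mTOR, and AKT in turn keeps FOXO transcription factors out of the nucleus. Secreted binding proteins hold IGFs outside the cell and either limit or prolong their action, and proteases such as PAPPA release the ligand again. In prostate cancer the axis is studied as a source of growth and survival signals, and medium serum supplies IGFs and binding proteins of its own, which RNA sequencing of the cells does not measure.

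The genes with the largest differences between GFP sorts were IGFBP3 and IGFBP6, on which the results below turn. The 250 bases before the RefSeq start of each are shown, 5′ to 3′ on the gene's strand, in GRCh38.p14. The IGFBP3 stretch lies on the minus strand at chr7:45921273-45921522 and the IGFBP6 stretch on the plus strand at chr12:53097417-53097666. Capitals mark matches to the letters searched, which were CTTTGAT and CTTTGTT (TCF/LEF, the factors through which β-catenin acts) and TGTTTAC (FOXO), on both strands.
IGFBP3: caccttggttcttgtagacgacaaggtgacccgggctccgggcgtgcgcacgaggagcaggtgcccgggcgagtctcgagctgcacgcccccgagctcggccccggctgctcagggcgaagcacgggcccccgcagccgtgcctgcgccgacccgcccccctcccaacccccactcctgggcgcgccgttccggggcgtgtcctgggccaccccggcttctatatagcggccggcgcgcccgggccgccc
IGFBP6: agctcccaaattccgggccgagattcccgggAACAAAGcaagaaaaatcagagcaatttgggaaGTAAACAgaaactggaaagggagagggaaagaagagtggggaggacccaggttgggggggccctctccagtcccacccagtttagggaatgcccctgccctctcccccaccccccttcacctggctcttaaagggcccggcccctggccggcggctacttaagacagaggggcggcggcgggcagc
The IGFBP6 window held AACAAAG, which is CTTTGTT read on the other strand, and GTAAACA, which is TGTTTAC read on the other strand, and the matches did not overlap. The IGFBP3 window held none of the 3 sets of letters. Of the 10 genes, 9 were matched in the RefSeq promoter table, and IGFBP6 was the 1 with any match. Among all 35116 promoters in the table, 2.26% held CTTTGAT, 4.5% held CTTTGTT and 2.98% held TGTTTAC in the same window. The GC content was 76% for the IGFBP3 window and 61.2% for the IGFBP6 window. A match describes letters and is no measurement of binding. By GENCODE 29 bounds, the whole IGFBP3 window lies inside the annotated gene. So does most of the IGFBP6 window, with both of its matches.

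Total estimated counts per library ranged from 13453614 to 21528810. Levels are counts scaled to library size (CPM), taken from the deposited log2 values and including their offset of 0.5 counts, and 1 count was worth 0.0433 to 0.0776 CPM. A gene without counts could still lie at up to 0.233 CPM in the shallowest library, for counting error only. The variance between libraries of a group was 5.54 to 40.6 times that from counting alone. The widest gap in each line was between DU145 GFP high replicates 1 and 3 (25.8 times) and between PC3 GFP low replicates 2 and 3 (40.6 times). PC3 GFP low replicates 2 and 3 also had 3495 and 3491 genes at 0, against 4577 to 4819 in the other PC3 libraries.
The markers partly went against the labels. EPCAM and CDH1, both epithelial adhesion genes, were near 0 everywhere (at most 4 and 16 estimated counts over a group), while KRT8 and KRT18 brought the summed level of the 4 epithelial markers to between 2880 and 4891 CPM in DU145 and between 362 and 514 CPM in PC3. The identity of the lines was not tested. The summed fibroblast markers stayed at or below 1.62 CPM and the endothelial markers at or below 1.13 CPM. Of the leukocyte markers, PTPRC was at or near 0, and CD68 made up nearly all of a summed 3.71 to 42.3 CPM. KRT8 was lower in GFP high cells, by a log2 fold change of -0.66 in DU145 and -0.53 in PC3 (limma adjusted p = 0.00152 and 0.0055), and CD68 was lower in DU145 GFP high (26.8 CPM) than in DU145 GFP low (40.1 CPM). The part of these markers in the results was not tested. LEF1, a transcription factor of the Wnt pathway and a Wnt target, was at 2.21 ± 0.30 CPM in DU145 GFP high against 0.642 ± 0.265 CPM in DU145 GFP low, and at 4.41 ± 0.64 CPM in PC3 GFP high against 1.43 ± 0.44 CPM in PC3 GFP low (limma adjusted p = 0.00508 in DU145 and 0.0106 in PC3). The DU145 call was lost without DU145 GFP high replicates 1 and 2 (limma adjusted p = 0.115), and the PC3 call without PC3 GFP high replicate 1 (0.0557) and without PC3 GFP low replicates 2 and 3 (0.181). AXIN2, another Wnt target, lay below the expression minimum and missed the threshold when all genes of the table were fitted (limma adjusted p = 0.304 in DU145 and 0.814 in PC3).

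In what follows, a value with ± that stands before an adjusted p is a log2 fold change with its standard error, from 3 libraries in each group. All 10 genes were above the expression minimum (1 CPM in at least 3 libraries). In DU145, 3 of the 10 rose in GFP high cells (IGFBP3, IGF1R and IRS1) and none fell, where 27.1% of all 12527 genes tested were called in either direction, 13.1% as higher and 13.9% as lower. With an unadjusted p under 0.05, 1 of the 10 was lower, IGFBP4, and voom on the estimated counts called none lower. In PC3, IGFBP3 and IGF1R rose and IGFBP6 fell, where 9.44% of genes were called, 4.17% as higher and 5.27% as lower. The median log2 fold change of the 10 genes was 0.07 in DU145 and 0.04 in PC3, against -0.01 and -0.02 over all genes tested. IGFBP3 and IGF1R were 2 of the 42 genes (0.335%) called higher in both lines. Averaged over both lines, the same 2 genes rose (IGFBP3 1.13 ± 0.12, limma adjusted p = 6.21e-05, and IGF1R 0.52 ± 0.07, 0.000343) and IGFBP6 fell (-1.32 ± 0.22, 0.00226), where 15.9% of all genes were called, 6.09% as higher and 9.8% as lower. PC3 carried the IGFBP6 average (-2.51), since the DU145 value was -0.13 (limma adjusted p = 0.78). Without DU145 GFP high replicates 1 and 2, 0 of the 10 genes were called in DU145, and of all genes 170 instead of 3389. That fit keeps 1 DU145 GFP high library, replicate 3, which lay farther from the other 2 (25.8 and 20.3 times the counting variance) than they did from each other (5.86), and which is assumed to vary like the libraries of the other groups.
Under equal medians the split of DU145 calls was 1313 higher and 2305 lower instead of 1647 and 1742, and that of PC3 calls 509 and 412 instead of 522 and 660. The direction of each call among the 10 genes was the same under both scalings tried.

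**Figure D1:**
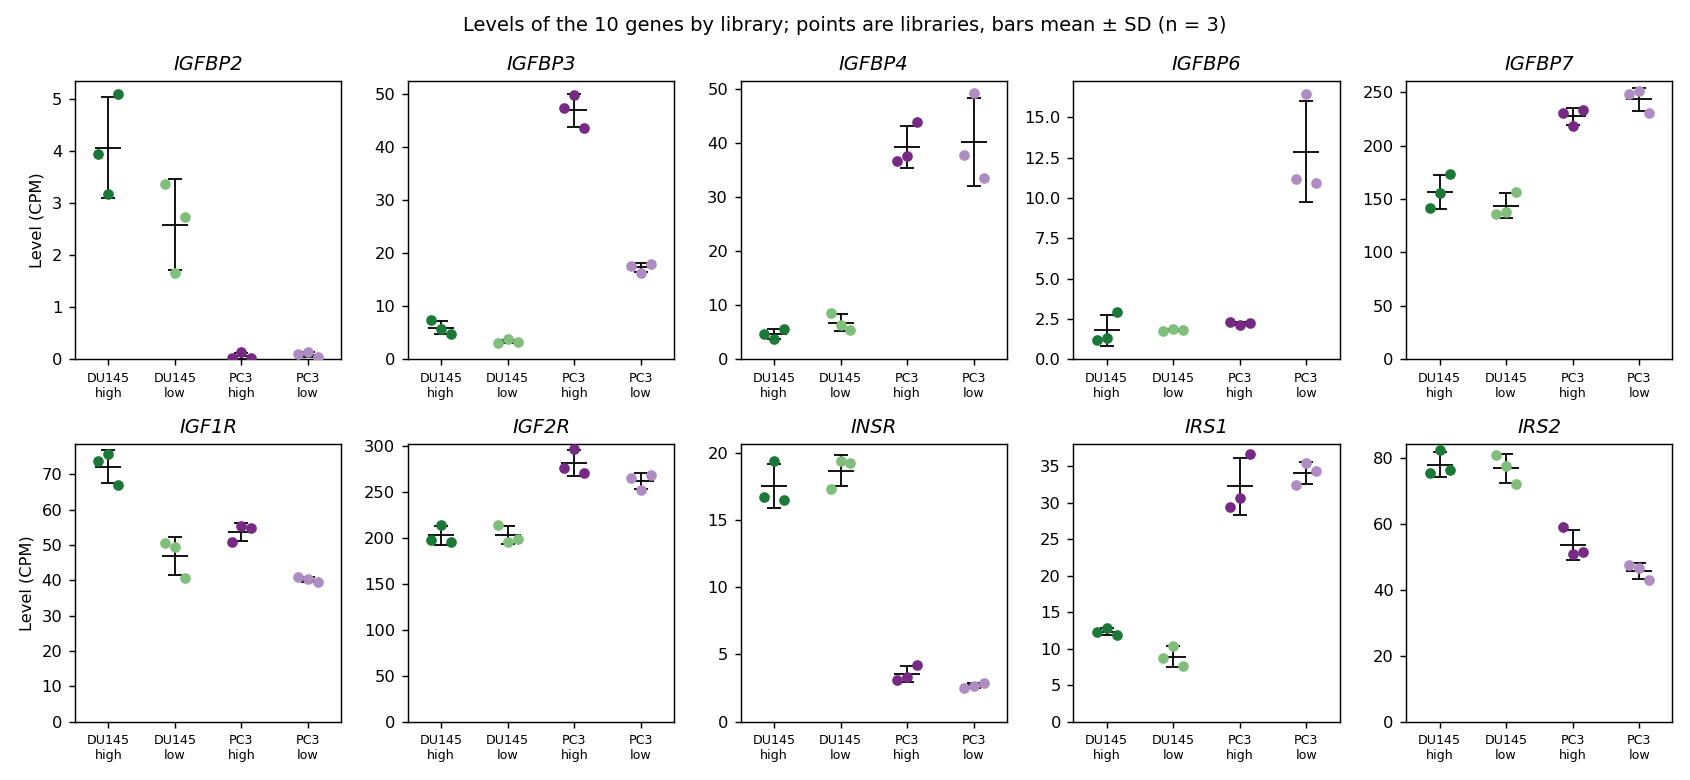
Level of each of the 10 genes in every library, in CPM on linear axes from 0, in the 4 groups of line and GFP sort; points are libraries and bars are group means ± SD (n = 3). The IGFBP3 libraries of both GFP high groups lie above those of GFP low in the same line, and for IGFBP6 the PC3 GFP high libraries (2.12 to 2.33 CPM) lie far below PC3 GFP low (11.0 to 16.5 CPM).

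IGFBP3 (ENSG00000146674, chromosome 7, 45912245 to 45921874, minus strand, GENCODE 29 on GRCh38) encodes the main IGF carrier of serum, which also acts on cells without IGF. In DU145 its level was 7.32, 5.69 and 4.77 CPM in GFP high replicates 1 to 3, against 3.06, 3.71 and 3.19 CPM in GFP low. Every GFP high library was above every GFP low library, and the GFP high libraries were the more scattered, with replicate 1 highest. Groups without overlap were seen for 40.5% of all genes in DU145 and 30.4% in PC3. The mean was 5.93 ± 1.29 CPM in GFP high, against 3.32 ± 0.34 CPM in GFP low (SD, n = 3 each), a log2 fold change of 0.82 ± 0.16 (SE, limma adjusted p = 0.00596).
In PC3 IGFBP3 stood at 47.2, 49.8 and 43.5 CPM in GFP high, against 17.6, 16.2 and 17.9 CPM in GFP low. The groups were far apart and each was tight. The log2 fold change was 1.44 ± 0.16 (SE, n = 3 each, limma adjusted p = 8.09e-05), a 2.71-fold higher level.
The rise in PC3 was the larger estimate, but the difference between lines did not pass (DU145 minus PC3 -0.62 ± 0.23 on the log2 scale, limma adjusted p = 0.082). It did pass with equal medians (-0.75, limma adjusted p = 0.0329), with quantile normalization (-0.91, 0.0143), without DU145 GFP high replicate 1 (-0.78, 0.0349) and without replicates 1 and 2 (-0.91, 0.0425). IGFBP3 was also a gene of unequal line level, at 4.63 ± 1.66 CPM in DU145 and 32.0 ± 16.3 CPM in PC3 (SD, n = 6 libraries each). Without DU145 GFP high replicates 1 and 2 the DU145 value was 0.53 and lost its call (limma adjusted p = 0.264).

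IGFBP6 (ENSG00000167779, chromosome 12, 53097436 to 53102345, plus strand) encodes a binding protein that prefers IGF2 over IGF1. In PC3 it stood at 2.33, 2.12 and 2.23 CPM in GFP high, against 11.2, 16.5 and 11.0 CPM in GFP low. All GFP high libraries were close together and well below the GFP low libraries, of which replicate 2 was highest. Groups without overlap were seen for 30.4% of all genes in PC3. The estimated counts summed to 140 in GFP high and 670 in GFP low. The log2 fold change was -2.51 ± 0.31 (SE, n = 3 each, limma adjusted p = 0.000183), a 5.69-fold lower level and the largest difference among the 10 genes in either line.
In DU145 IGFBP6 was low in both sorts, at 1.17, 1.30 and 2.91 CPM in GFP high, against 1.73, 1.84 and 1.81 CPM in GFP low. The groups overlapped, since GFP high replicate 3 was above all GFP low libraries and the other 2 were below them. The log2 fold change was -0.13 ± 0.31 (limma adjusted p = 0.78) on 74 counts in GFP high and 83 in GFP low.
IGFBP6 was the 1 gene of the 10 whose GFP effect differed between the lines (DU145 minus PC3 2.38 ± 0.44 on the log2 scale, limma adjusted p = 0.0037), where 15.9% of all genes did (7.06% with a higher effect in DU145, 8.82% with a lower one). The estimate ran from 1.70 to 3.21 over the alternatives, and quantile normalization lost the call (limma adjusted p = 0.0708). Under equal medians, 626 genes had a higher and 1428 a lower effect in DU145 than in PC3, instead of 885 and 1105.

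IGFBP4 (ENSG00000141753), an inhibitory binding protein and the best known substrate of PAPPA, stood at 4.64, 3.77 and 5.47 CPM in DU145 GFP high, against 8.46, 6.29 and 5.43 CPM in DU145 GFP low. The groups overlapped only at replicate 3 of each. The log2 fold change was -0.53 ± 0.20 (limma adjusted p = 0.0583), so it did not pass. It did pass with equal medians (limma adjusted p = 0.0391) and with quantile normalization (0.0252), and the estimate was -0.20 (0.428) after removal of the GC and length trend. In PC3 the same gene was at 36.6, 37.6 and 43.8 CPM in GFP high, against 37.7, 49.2 and 33.5 CPM in GFP low, and the groups overlapped (-0.02 ± 0.20, limma adjusted p = 0.975).

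IGFBP2 (ENSG00000115457), a binding protein often raised in tumours, stood at 3.93, 3.16 and 5.08 CPM in DU145 GFP high, against 3.36, 1.65 and 2.73 CPM in DU145 GFP low. GFP high replicate 2 was below GFP low replicate 1, so the groups overlapped (0.69 ± 0.73, limma adjusted p = 0.485). In PC3 it had 2 estimated counts over the GFP high libraries and 3 over the GFP low libraries, so that no difference could be detected at this depth. IGFBP7 (ENSG00000163453), a relative that binds IGFs weakly, was the most abundant of the 5 per kilobase of exon. It stood at 141, 155 and 173 CPM in DU145 GFP high, against 136, 138 and 157 CPM in DU145 GFP low (0.12 ± 0.08, limma adjusted p = 0.281). In PC3 it was at 230, 219 and 233 CPM in GFP high, against 249, 251 and 230 CPM in GFP low (-0.10 ± 0.08, limma adjusted p = 0.559). Both pairs of groups overlapped, and 7 of 12 libraries held fractional counts for this gene. In bulk libraries, fewer cells that make a transcript and less of it per cell cannot be told apart.

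IGF1R (ENSG00000140443, chromosome 15, 98648539 to 98964530, plus strand), the signalling receptor for IGF1 and IGF2, rose in GFP high cells in both lines. Its DU145 levels were 73.6, 75.8 and 66.9 CPM in GFP high, against 50.5, 49.4 and 40.7 CPM in GFP low. In PC3 it stood at 50.7, 55.2 and 54.8 CPM in GFP high, against 40.8, 40.2 and 39.6 CPM in GFP low. Neither pair of groups overlapped, as held for 40.5% of all genes in DU145 and 30.4% in PC3. In both lines the lowest GFP high library was clear of the highest GFP low library. The log2 fold change was 0.63 ± 0.09 in DU145 (SE, n = 3 each, limma adjusted p = 0.00115) and 0.41 ± 0.09 in PC3 (0.0135), which are 1.54-fold and 1.33-fold. The difference of the effects did not pass (0.21 ± 0.13, limma adjusted p = 0.277). The PC3 call was lost without PC3 GFP high replicate 2 (limma adjusted p = 0.0594), without replicate 3 (0.0529) and without PC3 GFP low replicates 2 and 3 together (0.198), and the DU145 call without DU145 GFP high replicates 1 and 2 (0.0984).

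INSR (ENSG00000171105), the insulin receptor, stood at 16.7, 19.4 and 16.5 CPM in DU145 GFP high, against 17.3, 19.4 and 19.2 CPM in DU145 GFP low (-0.09 ± 0.16, limma adjusted p = 0.693). In PC3 it stood at 3.11, 3.30 and 4.18 CPM in GFP high, against 2.53, 2.65 and 2.90 CPM in GFP low. The PC3 groups did not overlap, as held for 30.4% of all genes, and the value did not pass (0.38 ± 0.16, limma adjusted p = 0.178). IGF2R (ENSG00000197081), the mannose-6-phosphate receptor that clears IGF2 and carries lysosomal enzymes, was at 198, 215 and 196 CPM in DU145 GFP high and 214, 196 and 199 CPM in DU145 GFP low. Its PC3 levels were 276, 297 and 271 CPM in GFP high, against 265, 252 and 269 CPM in GFP low. The DU145 groups overlapped, the lowest PC3 GFP high library lay just above the highest PC3 GFP low library, and neither line passed (0.00 ± 0.07, limma adjusted p = 0.993 in DU145, and 0.10 ± 0.07, 0.411 in PC3).

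IRS1 (ENSG00000169047, chromosome 2, 226731317 to 226799759, minus strand), the adaptor that couples the receptors to PI3K, stood at 12.3, 12.9 and 11.9 CPM in DU145 GFP high, against 8.76, 10.4 and 7.60 CPM in DU145 GFP low. The groups did not overlap, as held for 40.5% of all genes. The log2 fold change was 0.48 ± 0.13 (SE, n = 3 each, limma adjusted p = 0.0218). It lost the threshold without DU145 GFP high replicate 1 (limma adjusted p = 0.07) or 2 (0.0783) or both (0.405), without DU145 GFP low replicate 1 (0.0664) or 3 (0.0973), with quantile normalization (0.152) and with DU145 fitted alone (0.0684). In PC3 IRS1 was at 29.5, 30.6 and 36.7 CPM in GFP high, against 32.5, 35.4 and 34.4 CPM in GFP low, with overlap (-0.09 ± 0.13, limma adjusted p = 0.777). The difference between lines did not pass (0.57 ± 0.19, limma adjusted p = 0.0565), although it did after removal of the GC and length trend (0.0151).
IRS2 (ENSG00000185950), an adaptor of the same family, did not pass in either line. It stood at 75.4, 82.3 and 76.2 CPM in DU145 GFP high, against 80.9, 77.4 and 72.2 CPM in DU145 GFP low (0.02 ± 0.09, limma adjusted p = 0.87). In PC3 it stood at 58.9, 50.8 and 51.3 CPM in GFP high, against 47.5, 46.6 and 43.0 CPM in GFP low. Every PC3 GFP high library was above every GFP low library (0.23 ± 0.09, limma adjusted p = 0.116), and 30.4% of all genes had PC3 groups without overlap.

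**Figure D2:**
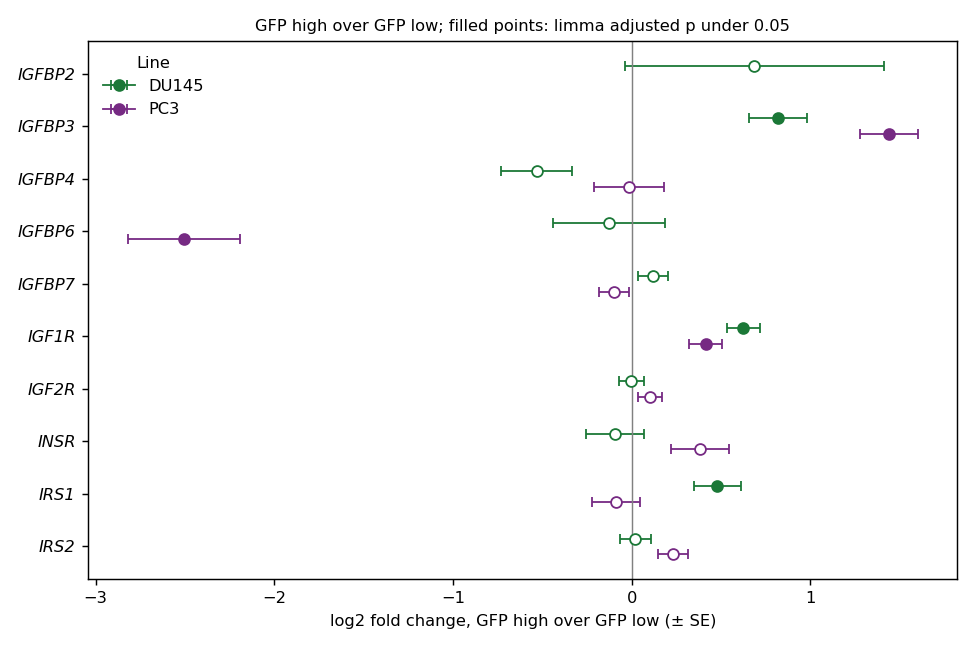
Log2 fold change of each of the 10 genes in GFP high over GFP low cells, by line, with limma standard errors as bars; filled points passed an adjusted p of 0.05, and IGFBP2 in PC3 is left out for its few counts. IGFBP3 and IGF1R lie above 0 in both lines, and IGFBP6 lies at -2.51 in PC3 and at -0.13 in DU145.

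A trend with base composition ran through the DU145 comparison and touches these values. Over 12510 genes, the log2 fold change in DU145 had a Spearman rho of -0.63 with GC content, with a median of 0.50 in the fifth of genes lowest in GC and -0.26 in the fifth highest. In PC3 rho was -0.10. The genes share the libraries, so no p is given. IGFBP3, IGF1R and IRS1 have GC contents of 49.5%, 51.7% and 50.7%, and IGFBP6 of 64.1%. With the trend in GC and length removed, the DU145 values were 0.95 for IGFBP3 (limma adjusted p = 0.00182), 0.60 for IGF1R (0.000202) and 0.46 for IRS1 (0.0172). The PC3 values were then 1.42 for IGFBP3 (3.45e-05), 0.34 for IGF1R (0.0074) and -2.30 for IGFBP6 (9.66e-06). IGFBP7, which did not pass as reported, passed in DU145 with the trend removed (0.31, limma adjusted p = 0.00546) and with quantile normalization (0.26).

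**Figure D3:**
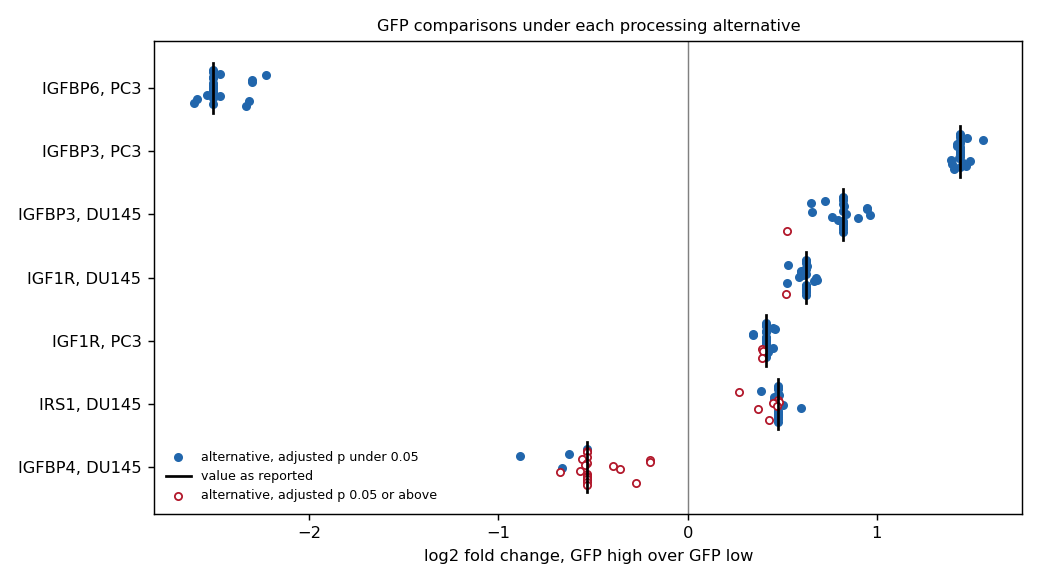
Log2 fold change, GFP high over GFP low, of the called genes and of IGFBP4 under each alternative of the processing; black lines are the values as reported and filled points passed an adjusted p of 0.05. The values drawn keep their sign, IGFBP6 and IGFBP3 in PC3 have filled points only, and IRS1 in DU145 lost its call in 7 alternatives.

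Between the lines, averaged over both sorts, all 10 genes were called, where 77.5% of all genes did (38.3% higher in DU145, 39.2% lower). Higher in DU145 were IGFBP2, INSR, IRS2 and IGF1R, and lower were IGFBP3, IGFBP4, IGFBP6, IGFBP7, IGF2R and IRS1. The widest gap was that of IGFBP2, which reached the minimum only through DU145, the line in which it was higher. It had 293 estimated counts over 6 DU145 libraries and 5 over 6 PC3 libraries, of which 3 were at 0. The ratio of depth-scaled counts was 74.4, with an exact 95% interval of 31.5 to 231 for counting error. INSR was at 18.1 ± 1.4 CPM in DU145 and 3.11 ± 0.60 CPM in PC3 (SD, n = 6 each, log2 fold change 2.55 ± 0.12, limma adjusted p = 2.23e-10). IRS1 went the other way, at 10.6 ± 2.1 CPM in DU145 and 33.2 ± 2.8 CPM in PC3 (-1.66 ± 0.09, limma adjusted p = 2.31e-09). The other log2 fold changes were -2.84 for IGFBP4, -2.69 for IGFBP3, -1.63 for IGFBP6, -0.65 for IGFBP7, -0.42 for IGF2R, 0.64 for IRS2 and 0.32 for IGF1R. The libraries of the lines overlapped for IGFBP6 and IGF1R and for none of the other 8, and among all genes 46.9% had lines that did not overlap. All 6 PC3 libraries were above all 6 DU145 libraries for IGFBP3, whose 4 groups ran in the order PC3 GFP high, PC3 GFP low, DU145 GFP high and DU145 GFP low with no overlap of neighbours. For IGF1R the order was DU145 GFP high, PC3 GFP high, DU145 GFP low and PC3 GFP low, and the last 2 overlapped.

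Per kilobase of exon, the scale on which genes can be set beside each other, IGFBP7 was highest in both lines, at 77.8 CPM per kb in DU145 and 122 in PC3. In DU145 IGF2R (11.4), IRS2 (9.51) and IGF1R (4.27) followed, then IGFBP4 (2.58), INSR (1.73), IGFBP6 (1.33), IRS1 (1.07), IGFBP3 (1.01) and IGFBP2 (0.696 CPM per kb). In PC3 the order had IGFBP4 (18.1) above IGF2R (15.2), and IGFBP3 (7.01) above IRS2 (6.11), IGFBP6 (5.61), IGF1R (3.36) and IRS1 (3.33). INSR (0.298) and IGFBP2 (0.0152 CPM per kb) were last. These PC3 values pool the sorts, and the order differed within each. In PC3 GFP high IGFBP3 (10.2) stood above IRS2 (6.60), and IGFBP6 (1.65) stood below IGF1R (3.84) and IRS1 (3.24 CPM per kb). In PC3 GFP low IGFBP6 (9.57) stood above IRS2 (5.62), and IGFBP3 (3.78 CPM per kb) below it.

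**Figure D4:**
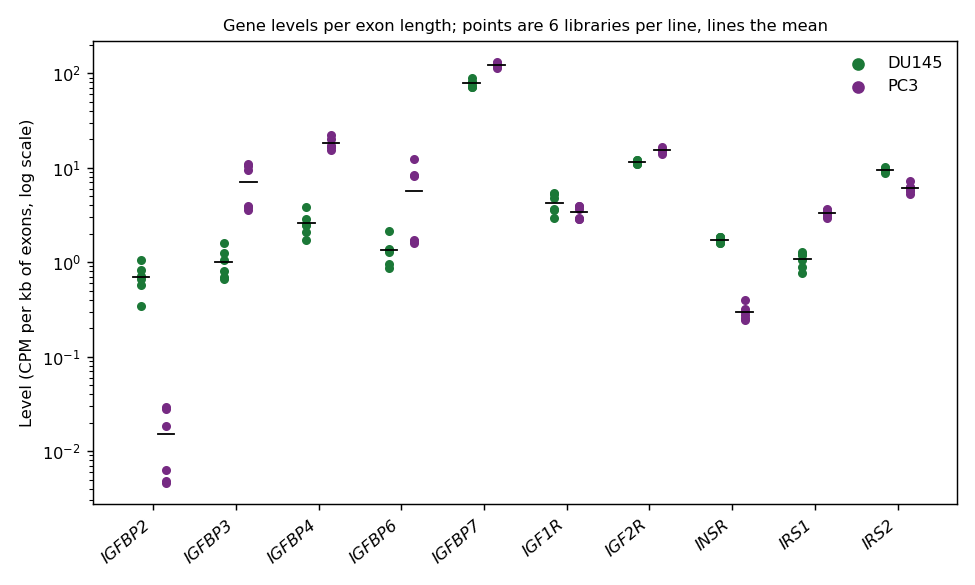
Level of each gene per kilobase of exon (CPM per kb, log axis) in DU145 and PC3; points are the 6 libraries of a line and lines their mean. IGFBP7 is highest in both lines (77.8 and 122), and IGFBP2 is lowest (0.696 in DU145 and 0.0152 in PC3).

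Other genes of the pathway were described from 4 lists. Their calls are to be read beside the shares over all genes tested. These were 13.1% higher and 13.9% lower in DU145, and 4.17% higher and 5.27% lower in PC3. Of 15 IGF ligands and extracellular regulators, 7 were above the minimum, and IGF1, INS, IGFBP1, IGFBP5 and IGFALS were among those below it. In PC3, 3 of the 7 rose in GFP high cells and none fell (with an unadjusted p under 0.05, 3 higher and 0 lower; voom 2 higher and 1 lower). PAPPA, a protease that cleaves IGFBP4, was at 7.54 ± 0.55 CPM in PC3 GFP high and 1.44 ± 0.39 CPM in PC3 GFP low (2.42 ± 0.34, limma adjusted p = 0.000427). STC2, an inhibitor of PAPPA, was at 282 ± 33 CPM in PC3 GFP high and 128 ± 3 CPM in PC3 GFP low (1.13 ± 0.09, limma adjusted p = 4.2e-06). A protease of the system and its inhibitor were higher in the same libraries. IGF2, a ligand, was at 1.01 ± 0.13 CPM in PC3 GFP high and 0.576 ± 0.061 CPM in PC3 GFP low (0.80 ± 0.17, limma adjusted p = 0.00949), on 62 counts in GFP high and 28 in GFP low, and its call was lost with voom, with PC3 fitted alone and without PC3 GFP low replicates 2 and 3. In DU145 IGF2 was far more abundant, at 50.8 ± 2.2 CPM in GFP high, against 39.0 ± 2.2 CPM in GFP low, and did not pass (0.38 ± 0.17, limma adjusted p = 0.102). IGF2 overlaps neighbouring annotated genes, so its reads are uncertain.
In DU145, 1 of the 7 rose and 1 fell. ADAM12, a protease of binding proteins, rose on 9 estimated counts in the GFP high libraries and 1 in the GFP low libraries. The ratio of depth-scaled counts was 9.74 (95% interval 1.35 to 427, for counting error only, which is smaller than the variance between libraries). Its call was lost in 5 alternatives, among them quantile normalization, voom, DU145 fitted alone and DU145 GFP high replicate 2 left out. FURIN, a proprotein convertase that processes the receptor precursors, was at 87.2 ± 9.6 CPM in DU145 GFP high and 109 ± 14 CPM in DU145 GFP low (-0.32 ± 0.10, limma adjusted p = 0.0353), and its call was lost in 11 alternatives, among them each of 4 DU145 libraries left out singly. With the GC and length trend removed its estimate was -0.005 (limma adjusted p = 0.968).

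Of 18 receptor adaptors and receptor brakes, 16 were above the minimum. In DU145, 13.1% of all genes were called higher and 13.9% lower. Of this list, 1 rose and none fell (0 also at an unadjusted p under 0.05 and 0 by voom). It was SOS1, which activates RAS, at 35.0 ± 7.5 CPM in GFP high, against 22.0 ± 1.8 CPM in GFP low (0.65 ± 0.19, limma adjusted p = 0.0257), a call that did not hold after GC and length correction or without any of 4 DU145 libraries taken singly. In PC3, 1 rose and 2 fell, where 4.17% of all genes were called higher and 5.27% lower. Those called in the list are all known to restrain the insulin receptor. GRB10 was at 3.90 ± 0.44 CPM in PC3 GFP high and 0.460 ± 0.314 CPM in PC3 GFP low (3.31 ± 0.59, limma adjusted p = 0.00311). It reached the minimum only through the PC3 GFP high libraries, the group in which it was higher. GRB14, of the same family, was at 0.311 ± 0.063 CPM in PC3 GFP high and 2.89 ± 0.49 CPM in PC3 GFP low (-3.22 ± 0.33, limma adjusted p = 3.48e-05). These related adaptors moved in opposite directions, on 244 and 18 counts in GFP high and 22 and 148 counts in GFP low. ENPP1, a membrane enzyme that binds the insulin receptor, was at 2.15 ± 0.27 CPM in PC3 GFP high and 4.43 ± 0.33 CPM in PC3 GFP low (-1.05 ± 0.24, limma adjusted p = 0.0158). The call of STC2 in PC3 held under all 24 alternatives. Those of PAPPA, GRB10 and GRB14 held under the 23 that tested them, since these genes do not reach a log2 minimum of 4. For GRB10 this is no added support, given how it reached the minimum. The call of ENPP1 was lost without PC3 GFP high replicate 1 and without PC3 GFP low replicates 2 and 3.

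All 26 genes of the PI3K, AKT, mTOR and FOXO list were above the minimum. In DU145, 9 rose and 4 fell, where 13.1% of all genes were called higher and 13.9% lower, and the median log2 fold change of the list was 0.26, against -0.01 over all genes. PIK3CA, the catalytic subunit of PI3K, was at 11.8 ± 3.8 CPM in GFP high, against 5.91 ± 0.73 CPM in GFP low (0.96 ± 0.28, limma adjusted p = 0.0268). PIK3R1, its regulatory subunit, was at 11.1 ± 3.3 CPM in GFP high, against 6.40 ± 0.82 CPM in GFP low (0.75 ± 0.22, limma adjusted p = 0.0264).
RPS6KB1, a kinase below mTOR, had a log2 fold change of 0.74 ± 0.20 (limma adjusted p = 0.0186) and AKT1 one of -0.39 ± 0.10 (0.0142) in the same comparison. The 13 calls of this list were 0 without DU145 GFP high replicate 1, 0 without replicate 2, 0 without DU145 GFP low replicate 3 and 1 without DU145 GFP low replicate 1, and they were 6 with the GC and length trend removed. Under that removal PIK3CA (0.27, limma adjusted p = 0.119), PIK3R1 (0.35, 0.0827) and RPS6KB1 (0.27, 0.0739) were among the calls lost, and AKT1 was still called (-0.17). In PC3 limma called 0 of the 26 (3 higher and 1 lower at an unadjusted p under 0.05, 1 higher by voom), with a median of 0.05. Over all genes tested, 9.44% were called in PC3.
Of 12 FOXO responsive genes, 11 were found and 10 were above the minimum. Of those 10, 10% were called in DU145 and 20% in PC3, against 27.1% and 9.44% of all genes tested. CITED2, a transcriptional coregulator, was at 71.3 ± 8.4 CPM in PC3 GFP high and 34.8 ± 3.5 CPM in PC3 GFP low (1.03 ± 0.11, limma adjusted p = 7.15e-05). In DU145 it was at 24.4 ± 2.0 CPM in GFP high, against 31.6 ± 2.4 CPM in GFP low (-0.37 ± 0.11, limma adjusted p = 0.0323), a call lost with voom (limma adjusted p = 0.0518), with the trend in GC and length removed (0.0516) and without any of 4 DU145 libraries taken singly. The effects differed between the lines (-1.40 ± 0.16, limma adjusted p = 0.000147). TRIB1, a pseudokinase, was at 5.20 ± 0.70 CPM in PC3 GFP high and 8.07 ± 0.04 CPM in PC3 GFP low (-0.64 ± 0.15, limma adjusted p = 0.0174), a call lost in 5 of the alternatives. No other gene of the list passed in either line, and in DU145 none rose (1 at an unadjusted p under 0.05, 0 by voom).

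**Figure D5:**
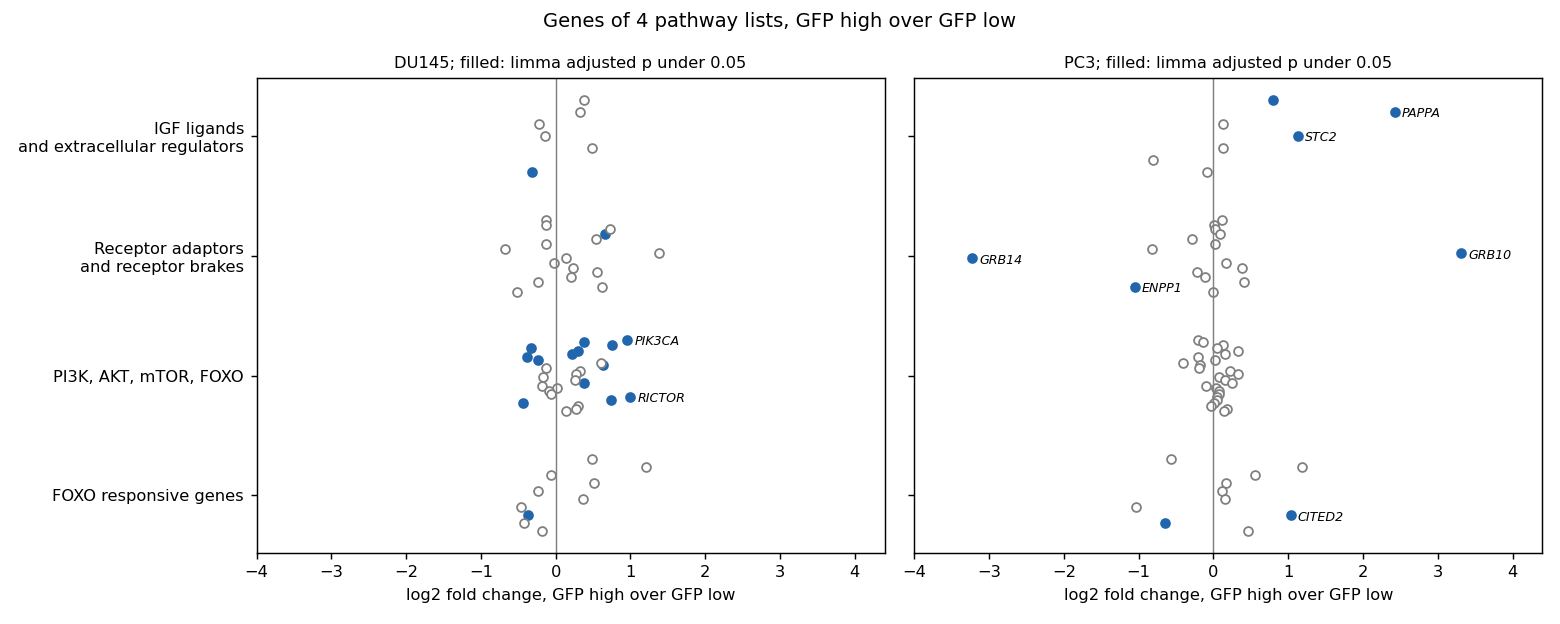
Log2 fold change, GFP high over GFP low, of the genes above the minimum in each of the 4 pathway lists, by line; each point is a gene, filled where it passed an adjusted p of 0.05, and genes with 3 or fewer counts in a group are left out. In PC3 the widest values are those of GRB10 (3.31), GRB14 (-3.22) and PAPPA (2.42), and the PI3K list has no filled point.

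The genes most alike to IGFBP3 and IGFBP6 were looked up over the 12 libraries, after subtracting each line's mean from the log2 values. They are descriptions with no test, since the genes were picked as the highest correlations. Each line holds both GFP sorts, so genes that differ between the sorts can correlate for that alone. For IGFBP3, among 9077 genes, the highest Pearson correlations were 0.98 for ANTXR1, 0.96 for RAB3B and 0.94 for SOD2. For IGFBP6, among 9078 genes, they were 0.99 for TST, 0.98 for LAMB2 and 0.97 for FGD1. The PC3 log2 fold changes were 0.85 for ANTXR1, 1.42 for RAB3B and 0.66 for SOD2, and -1.17 for TST, -0.86 for LAMB2 and -1.31 for FGD1. In DU145 TST (-0.07), LAMB2 (-0.01) and FGD1 (-0.12) did not pass, like IGFBP6. ANTXR1 (0.43, limma adjusted p = 0.00664) and RAB3B (0.60, 0.00957) passed in DU145, like IGFBP3, and SOD2 (0.17, 0.0596) did not.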

How the data were processed

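RNA was sequenced in 12 libraries. STAR and DESeq2 are named, with no version, per the submitters' processing notes. For build and counting, the method is not given in the sources used here. The deposited values are, per the labels, log2 normalized counts. From their lowest steps the deposited values were read as log2 CPM with an offset of 0.5 counts, and 86.9% of the counts recovered in the median library were whole within 0.01, so counts printed are estimates.

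Tests used limma 3.58.1 under R 4.3.3 (4 group means, trended eBayes, 8 residual degrees of freedom, two-sided) over the 12527 genes that reached a log2 value of 0 in 3 or more libraries. P-values were adjusted by Benjamini-Hochberg within each contrast and called at 0.05. The procedure was tested on simulated data. The 10 genes and the 4 lists were chosen with earlier results of these data known. Named list genes are those called in a line, up to 5 a list and line with the smallest p; not every gene so chosen is reported. Gene positions, exon lengths and GC content came from GENCODE 29 (GRCh38, 18901 genes matched by identifier) and promoters from RefSeq (GRCh38.p14). Some gene bounds in GENCODE begin upstream of the RefSeq start, those of IGFBP3 and IGFBP6 among them. Alternatives covered scaling, minimum, test, replicate block, the GC and length trend, and left-out libraries.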

Additional observations from a re-analysis of the deposited data

Results flagged for a closer look

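The GFP effect on IGFBP6 differed between the lines by 2.38 on the log2 scale (DU145 minus PC3, limma adjusted p = 0.0037), a difference tested as an interaction term. In PC3 all 3 GFP high libraries were lower than all 3 GFP low libraries, and in DU145 the groups overlapped. Groups without overlap were seen for 30.4% of all genes in PC3. PC3 GFP low replicate 2, a library that stands apart, held the highest IGFBP6 level. Without it the difference was 2.19 (limma adjusted p = 0.00601), and without replicates 2 and 3 together 2.20 (0.0341).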

How the results depend on the processing

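Over 24 settings, 1397 of 1597 values for single genes and lists kept their direction and side of the threshold, 93 lost a call, 23 gained one, 62 counts moved, and 22 values changed sign, 0 of them among called results. Many estimates could not move, since leaving out a DU145 library leaves the PC3 estimates as they were, and the reverse. The tally also holds the wide gaps between the lines, so it does not measure how firm the GFP calls are. The count of genes called in DU145 (3389) was 2252 with quantile normalization, 170 without GFP high replicates 1 and 2, and 896 to 5597 with 1 library left out. Its count among the 10 genes (3) was 5 with the GC and length trend removed and the replicate block, 0 without GFP high replicates 1 and 2, and 2 to 4 with 1 library left out. In PC3 (1182) it was 2446 with the trend removed, 2692 with the block as well, 410 without GFP low replicates 2 and 3, and 660 to 1492 with 1 library left out. For the mean of both lines (1991 genes) it was 3759 with the replicate block, 370 without the DU145 pair, 720 without the PC3 pair and 932 to 4416 with 1 left out, and 3 of the 10 genes became 5 with trend removal and block. For the difference between lines (1990 genes) it was 3321 with the block, 3277 with trend removal and block, 649 and 1188 without those pairs, and 1145 to 3661 with 1 left out. The 1 gene of the 10 called there became 2 with the block, equal medians, quantile normalization or without the DU145 pair, 3 with the trend removed (with or without the block), 0 at a log2 minimum of 4, which IGFBP6 does not reach, and 1 to 2 with 1 library left out. Deviations of same-numbered libraries correlated at -0.02, 0.09 and 0.21 in DU145 and 0.06, 0.20 and 0.14 in PC3. Every PC3 library correlated best with its own number, as did DU145 GFP high replicates 2 and 3. The labels do not say whether the numbers mark pairs, and these correlations do not settle it. The main fit took no pairs, and the block, which does, called 4842 genes in DU145 and 1551 in PC3. With the block and the trend removed, IRS2 passed in DU145 (0.20, limma adjusted p = 0.0235) and in PC3 (0.24, 0.0094). With the block IGFBP4 in DU145 (limma adjusted p = 0.0421) and the line difference of IRS1 (0.0336) passed. Signs turned for uncalled values only: DU145 IRS2 with equal medians (-0.072) and without the DU145 pair (-0.011; -0.023 to 0.059 with 1 library left out), DU145 IGF2R (0.17; -0.042 to 0.039 with 1 left out) and its line difference (0.080) with quantile normalization, DU145 IGFBP6 with the trend removed (0.22) and without the DU145 pair (0.70; -0.54 to 0.12 with 1 left out), and PC3 IGFBP4 with equal medians (0.021), quantile normalization (0.034), the trend removed (0.12) and without the PC3 pair (0.055; -0.14 to 0.14 with 1 left out). Equal medians moved the median line difference of all genes to 0.13 from -0.01. The causes were not tested.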
